A study of Mus musculus with 12 samples.

Results

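Srcin1 and the Src family of tyrosine kinases were followed in mouse bone marrow mesenchymal stem/stromal cells (MSCs) cultured with or without hematopoietic stem/progenitor cells (HSCs). The genes asked for were Srcin1, the kinases Src, Fyn, Yes1, Lyn, Fgr, Blk and Lck, and Csk, the kinase that acts on them, 9 genes in all. Every probe set (a group of short oligonucleotides that gives 1 signal and can read more than 1 transcript) that the platform annotation assigns to one of these symbols alone was taken. This gave 14 probe sets of 7 genes among 45037 probe sets and 18193 genes on the array: 4 for Yes1, 2 each for Srcin1, Src, Fyn and Fgr, and 1 each for Csk and Blk. Lyn and Lck had no probe set assigned to them alone and were not analysed here.

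The study asked how HSCs act on the expression profile of MSCs. The MSC and HSC co-culture group held 6 samples, seeded with 3000 MSCs and 7000 HSCs per well, and the MSC-only group held 6 samples seeded with 3000 MSCs and 0 HSCs. Both were harvested on day 6, and total RNA was hybridized to the Affymetrix mouse 430 2.0 array. For both groups the labels give bone marrow of male C57BL6/J mice aged 6 weeks, MSCs sorted for PDGFR-α and Sca-1 and, in the co-cultures, HSCs sorted as lineage-negative cells with Sca-1 and c-Kit. The methods also give CD31, CD45 and TER119 as absent from the MSCs, and for co-cultures they describe MSCs from mice labelled with green fluorescent protein without naming the mice of the arrays. Contact between the cell types on these arrays (direct or through an insert), removal of HSCs before RNA extraction and the mice behind each sample are stated in neither. A p-value here thus covers the spread of the 12 samples, which may be technical, and fewer cells of a type cannot be told apart from less RNA per cell.

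Some measurements went against the labels. Of 11 macrophage markers the median member lay at the 99.7th percentile of all genes in level, while the median of 12 MSC markers lay at the 68.5th percentile. The summed macrophage signal was 225269.2 to 293530.0 in co-culture and 217592.6 to 302144.8 in MSC-only arrays, so the ranges overlapped, and 3 of the 11 had a positive and 8 a negative difference (co-culture minus MSC-only), with a median of -0.026 log2 units. The brightest of them, Ctss, had means of 36357.1 in co-culture and 34858.9 in MSC-only arrays, and Col1a2, the brightest MSC marker, had 13815.8 in co-culture and 16632.7 in MSC-only. HSC markers had a summed signal of 304 to 712 in co-culture and 266 to 664.6 in MSC-only arrays, and Gata2, the brightest, had means of 199 in co-culture and 189 in MSC-only. None of the measured markers of MSCs, macrophages, B cells, T cells, neutrophils, HSCs, neurons or epithelium stood at 0 on all arrays. Dim probe sets also had signals above 0 here, so this does not show that a cell type was present. Xist, which is transcribed from the inactive X chromosome of female cells, had signals of 13136 to 21978 on all 6 co-culture arrays and on MSC-only arrays 3 and 4, and of 60 to 118 on MSC-only arrays 1, 2, 5 and 6. The Y-linked Kdm5d had signals of 260.4 to 355.2 on co-culture arrays 1, 2, 5 and 6 and of 12.1 and 17.1 on co-culture arrays 3 and 4, against 658.1 to 776.2 on MSC-only arrays 1, 2, 5 and 6 and 11.0 and 5.5 on MSC-only arrays 3 and 4. The part of these mixtures in the values below was not tested. Fits with the Xist class (high or low) as a block cannot test it, since the low class holds MSC-only arrays alone. Their group difference rests on the 6 co-culture arrays and on MSC-only arrays 3 and 4. The first principal component, with 21.6% of the variance, put co-culture arrays 1, 4 and 6 and MSC-only arrays 2, 4 and 6 on its positive side and the other 6 arrays, 3 of each group, on its negative side.

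Src family kinases sit at the inner face of the plasma membrane and pass on signals from integrins, growth factor receptors and immune receptors. Csk switches them off by phosphorylating a tyrosine in their tail, and phosphatases such as CD45 (Ptprc) remove that phosphate. Srcin1, also called p140Cap, is a scaffold protein known from neurons and epithelial cells that binds Src and Csk and restrains Src activity, cell spreading and migration. Src, Fyn and Yes1 are made in most cell types, Fgr belongs to myeloid cells, Lyn to myeloid and B cells, Blk to B cells and Lck to T cells. RNA levels say nothing of the kinases' phosphorylation.

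On the scale used here, log2(signal + 16), 1 of the 2 Srcin1 probe sets had the largest difference of the 14. With a constant of 1 in place of 16 its log2 difference was 1.14, against 1.59 for the dim Yes1 probe set 1458878_at, and the ratio of means was 1.97 for Srcin1 and 2.93 for that Yes1 probe set. Values are the deposited array signals in arbitrary linear units, and differences are co-culture minus MSC-only on that log2 scale, which understates changes of dim probe sets. Probe set 1436621_at had a lowest, median and highest signal of 102.9, 132.3 and 168.7 in co-culture and of 26.2, 71.3 and 116.8 in MSC-only arrays. Co-culture arrays 1, 2, 5 and 6 lay above every MSC-only array, while co-culture arrays 3 and 4 lay below the highest MSC-only array, number 3. The mean was 134 ± 25.9 in co-culture and 68.2 ± 35.9 in MSC-only (SD, n = 6 each), a ratio of 1.97. The log2 difference was 0.94 (SE 0.27, 95% interval 0.35 to 1.53), with a limma adjusted p of 0.925 over all probe sets, so it did not pass the threshold of 0.05. The SE was larger than the median of 0.181 over the 4503 probe sets nearest to it in level, and the coefficient of variation was 19.3% in co-culture and 52.7% in MSC-only. It ranked 217 by limma p, and 0.133% of all probe sets had a larger positive difference. The study chose Srcin1 among its leading genes on these same samples, so the size of this difference is not independent evidence of its direction.

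**Figure D1:**
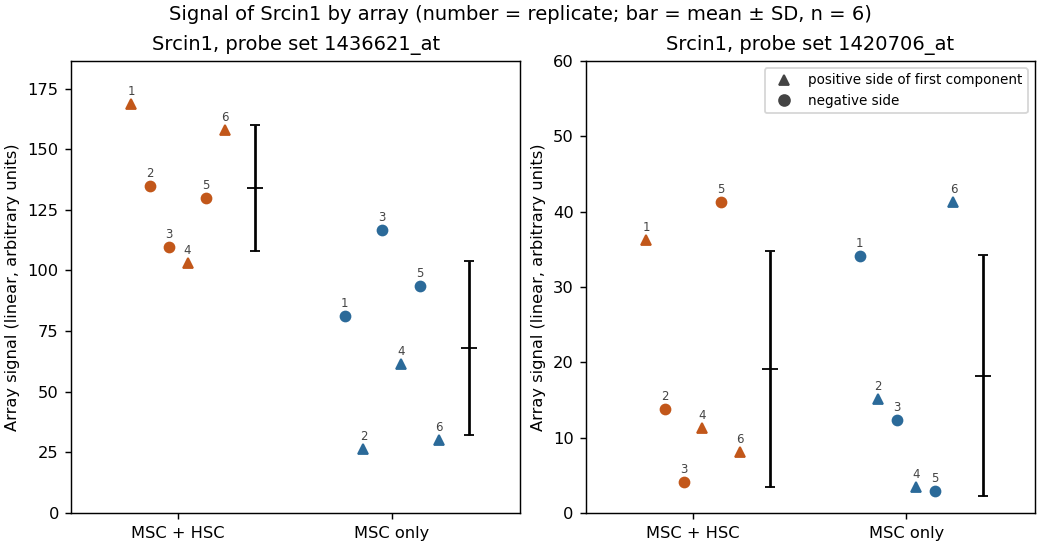
Array signal (y axis, linear arbitrary units) of both Srcin1 probe sets in co-culture (MSC + HSC) and MSC-only arrays, with replicate numbers, the side of the first principal component as the symbol, and mean ± SD of 6 arrays as the bar. For 1436621_at the co-culture arrays lie between 102.9 and 168.7 and MSC-only arrays between 26.2 and 116.8, and for 1420706_at the groups span 4.1 to 41.3 and 2.9 to 41.3.

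The Srcin1 difference was uneven over the arrays. On the positive side of the first component the signals were 102.9 to 168.7 in co-culture and 26.2 to 61.3 in MSC-only (3 arrays each). The log2 difference there was 1.56 (SE 0.29). On the negative side they were 109.8 to 134.7 in co-culture and 81.4 to 116.8 in MSC-only, and the difference was 0.32 (SE 0.17). The difference between the sides was 1.24 log2 units (SE 0.35), with a limma interaction adjusted p of 0.987, so it did not pass. The sides were found in the data and this split was added afterwards. They also differed in some of the summed marker signals. The sums of macrophage, T cell, neutrophil, neuron and epithelium markers overlapped between the sides. Those of B cell, HSC and MSC markers did not and are given here for that reason. Summed B cell markers were 1510.9 to 2619.1 on the positive and 760.8 to 1003.3 on the negative side. HSC markers were 266.0 to 400.0 on the positive and 513.2 to 712.0 on the negative side. MSC markers were 15619.3 to 25174.6 on the positive and 25469.7 to 41067.6 on the negative side. These linear sums are weighted to the brightest gene of each list, Ighm, Gata2 and Col1a2. The sides were drawn from these same values, so ranges that do not overlap are not independent of the split. The part of these markers in the Srcin1 values was not tested. With the Xist class as a block the Srcin1 difference was 0.55 (SE 0.37, adjusted p = 0.999, limma). Without the 4 MSC-only arrays of low Xist signal it was 0.55 (SE 0.25, adjusted p = 0.999, limma). Both settings make the same contrast, of the 6 co-culture arrays with MSC-only arrays 3 and 4 alone. With a constant of 64 in place of 16 the Srcin1 difference was 0.62, and in all 28 alternative settings it stayed above 0 and short of the threshold.

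**Figure D2:**
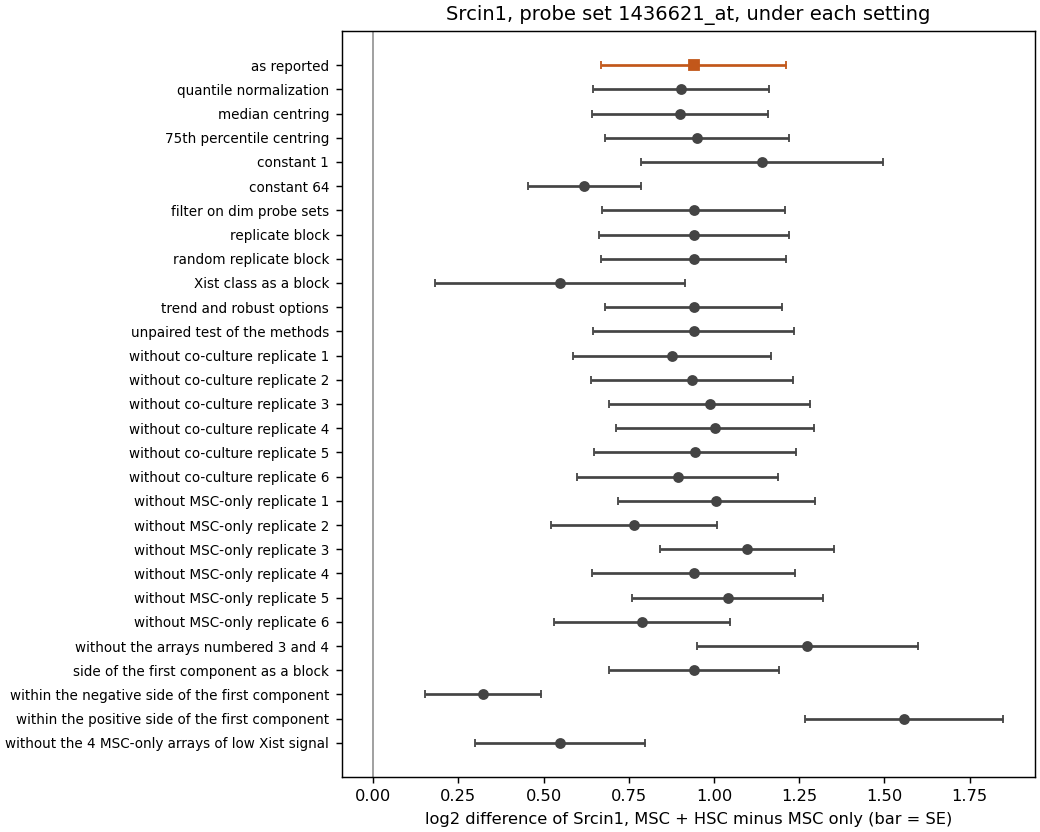
Log2 difference of Srcin1 probe set 1436621_at, co-culture minus MSC-only (x axis, bar = SE), as reported (square) and under each of 28 other settings (rows). All points lie to the right of 0, between 0.32 within the negative side of the first component and 1.56 within the positive side.

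The other Srcin1 probe set, 1420706_at, had a lowest, median and highest signal of 4.1, 12.6 and 41.3 in co-culture and of 2.9, 13.8 and 41.3 in MSC-only arrays. The groups covered the same range, and the log2 difference was 0.06 (SE 0.34, adjusted p = 1, limma). Its mean level stood at the 20.4th percentile of all probe sets and that of 1436621_at at the 52.6th. Over the 12 arrays the log2 values of the pair correlated with r = -0.085 (permutation p = 0.788) and rho = 0.053 (permutation p = 0.872), and leaving out the 2 arrays farthest from the median gave r = 0.378. The 2 differences stood 0.88 log2 units apart, with an exact two-sided permutation p of 0.117 over 924 arrangements of the 6 and 6 arrays and 0.39 after adjustment over 10 such pairs. The pair thus showed no common pattern over the arrays, and the test did not separate their differences either. The annotation ties 1420706_at to a curated RefSeq mRNA and 1436621_at to another sequence record. Which Srcin1 transcripts each of them reads was not tested.

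Csk, the kinase that holds the family in check, stood at the 84.2nd percentile and varied little. Its lowest, median and highest signals were 771.5, 909.0 and 942.0 in co-culture and 810.7, 973.6 and 1088.5 in MSC-only arrays. Co-culture array 2 lay below all MSC-only arrays, and the other 5 lay within the MSC-only range. The log2 difference was -0.12 (SE 0.09, 95% interval -0.32 to 0.08, adjusted p = 1, limma), and with the Xist class as a block it was -0.01.

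Fyn, a kinase of integrin and immune receptor signalling, had nearly the same difference at both of its probe sets. Probe set 1448765_at had a lowest, median and highest signal of 589.2, 673.9 and 703.6 in co-culture and of 635.4, 760.6 and 900.2 in MSC-only arrays. Co-culture arrays 3 and 5 lay below every MSC-only array, and the other 4 lay within the MSC-only range. Its log2 difference was -0.21 (SE 0.10, adjusted p = 1, limma). Probe set 1417558_at had 334.4, 396.9 and 459.9 in co-culture and 353.4, 484.1 and 582.1 in MSC-only arrays. Its log2 difference was -0.21 (SE 0.13, adjusted p = 1, limma), and with the Xist class as a block it was -0.07, against -0.29 for 1448765_at. The differences of the pair stood 0.01 log2 units apart (exact permutation p = 0.959). Their log2 values correlated with r = 0.670 (permutation p = 0.0174, adjusted over 10 pairs 0.174) and rho = 0.650 (permutation p = 0.025, adjusted 0.25), which did not pass. Without the 2 farthest arrays r was 0.842, while it was -0.198 on the positive and 0.969 on the negative side of the first component, 6 arrays each.

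Src, the founding member, had 2 probe sets with small positive differences. Probe set 1450918_s_at had a lowest, median and highest signal of 198.2, 231.4 and 280.9 in co-culture and of 181.7, 193.1 and 300.1 in MSC-only arrays. The co-culture arrays lay within the MSC-only range, and the log2 difference was 0.12 (SE 0.14, adjusted p = 1, limma) and -0.02 with the Xist class as a block. Probe set 1423240_at had 25.4, 64.3 and 95.5 in co-culture and 42.5, 48.2 and 62.8 in MSC-only arrays. Co-culture arrays 1, 4 and 5 lay above and array 2 below every MSC-only array, and the log2 difference was 0.22 (SE 0.21, adjusted p = 1, limma). The pair correlated with r = -0.298 (permutation p = 0.346, adjusted 0.865).

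Yes1, a close relative of Src, had 4 probe sets that gave different accounts. The widest difference was that of 1458878_at, whose lowest, median and highest signals were 3.1, 22.8 and 36.8 in co-culture and 0.9, 6.5 and 17.4 in MSC-only arrays. Co-culture arrays 1, 3 and 5 lay above every MSC-only array, and co-culture array 6 lay below 4 of the 6 MSC-only arrays. The log2 difference was 0.67 (SE 0.26, adjusted p = 1, limma), and it was 1.59 with a constant of 1 and 0.26 with a constant of 64, so its size at this low signal changed with the constant. Probe set 1449090_a_at, at the 53.9th percentile and the brightest of the 4, had 49.7, 103 and 135.4 in co-culture and 91.5, 101 and 127.8 in MSC-only arrays, with a log2 difference of -0.09 (SE 0.19, adjusted p = 1, limma). Probe set 1456843_at had 32.7, 44.1 and 66.5 in co-culture and 6.9, 34.6 and 51.3 in MSC-only arrays, a log2 difference of 0.35 (SE 0.24, adjusted p = 1, limma). Probe set 1418470_at had 12.9, 36.1 and 47.9 in co-culture and 13.4, 38.0 and 56.9 in MSC-only arrays, a log2 difference of -0.06 (SE 0.25, adjusted p = 1, limma). The 6 pairs of Yes1 probe sets correlated with r between -0.352 and 0.101 (lowest permutation p = 0.273), and their differences stood at most 0.76 log2 units apart (lowest exact permutation p = 0.0736, adjusted over 10 pairs 0.39).

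Fgr, the kinase of myeloid cells, differed little between the groups. Probe set 1419526_at had a lowest, median and highest signal of 78.4, 118 and 174.2 in co-culture and of 60.7, 120 and 139.5 in MSC-only arrays, with a log2 difference of 0.13 (SE 0.20, adjusted p = 1, limma). Probe set 1442804_at had 62.9, 87.8 and 210.6 in co-culture and 67.6, 76.9 and 112.4 in MSC-only arrays, with a log2 difference of 0.20 (SE 0.23, adjusted p = 1, limma). In both, co-culture array 6 was the highest of all 12 arrays, and without it the difference of 1442804_at was -0.002. The pair correlated with r = 0.445 (permutation p = 0.15, adjusted 0.75).

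Blk, the B cell kinase, had the smallest difference. Its lowest, median and highest signals were 42.4, 56.7 and 80.5 in co-culture and 37.2, 59.5 and 80.5 in MSC-only arrays, and the log2 difference was 0.02 (SE 0.19, 95% interval -0.40 to 0.43, adjusted p = 1, limma). The measured B cell markers stood at a median 37.9th percentile, with a summed signal of 763.6 to 2619.1 in co-culture and 760.8 to 2463.5 in MSC-only arrays. Their brightest, Ighm, had means of 1014.5 in co-culture and 967.6 in MSC-only. Of the 6 measured B cell markers 5 had a positive and 1 a negative difference, with a median of 0.150. For comparison, 9695 of all 18193 genes had a positive difference. The neutrophil and epithelium markers were also mostly dim, at a median 24.4th and 33.7th percentile of genes. None of the B cell, neutrophil or epithelium markers passed the adjusted threshold. Neutrophil markers had 7 positive and 2 negative differences of 9 with a median of 0.226, between -0.05 for S100a9 and 0.79 for Cxcr2 (SE 0.20, adjusted p = 0.734, limma), and their brightest, Csf3r, had means of 717 in co-culture and 723 in MSC-only. Epithelium markers had 5 positive and 1 negative difference of 6 with a median of 0.150, and the negative one was the brightest, Krt19, with means of 129 in co-culture and 153 in MSC-only. The T cell markers stood at a median 29.9th percentile of genes. Cd28, the brightest of them, stood apart at the 95.6th, with means of 5776.8 in co-culture and 5419.1 in MSC-only.

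**Figure D3:**
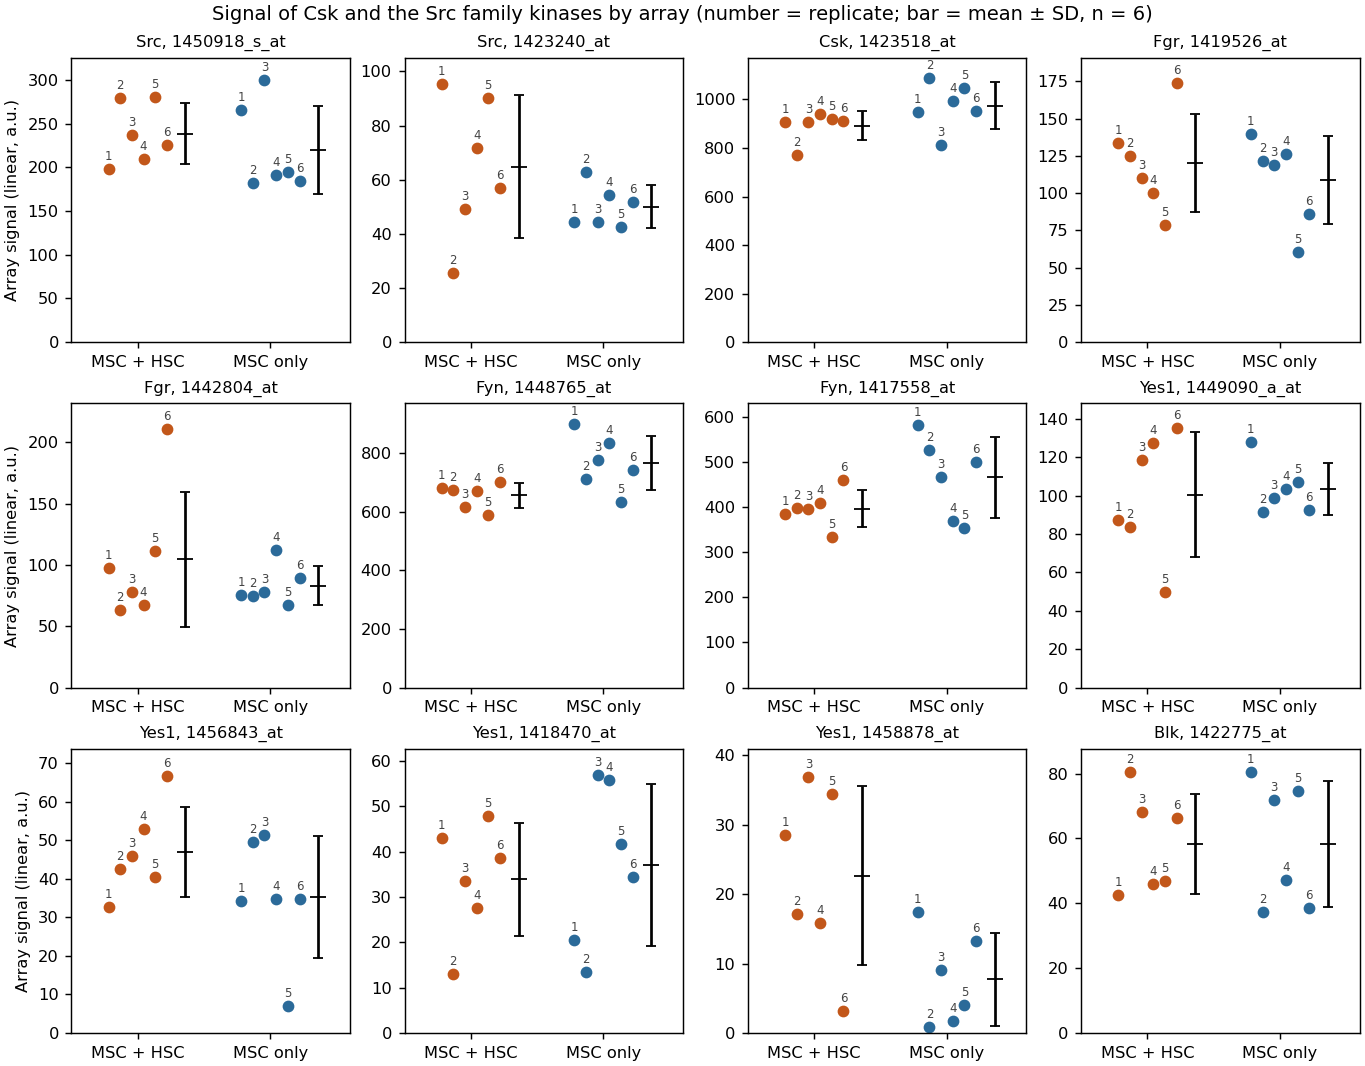
Array signal (y axes, linear arbitrary units, each from 0) of the 12 probe sets of Src, Csk, Fgr, Fyn, Yes1 and Blk in co-culture (MSC + HSC, left) and MSC-only (right) arrays, with replicate numbers as labels and mean ± SD of 6 arrays as bars. The groups overlap in every panel, and in Fyn both co-culture means (656 and 397) lie below the MSC-only means (768 and 467).

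Over the 14 probe sets, 9 had a positive and 5 a negative difference, and 0 passed the adjusted threshold, which 2 of all 45037 probe sets (0.00444%) passed. At an unadjusted p under 0.05 there were 2 higher in co-culture, 1436621_at of Srcin1 and 1458878_at of Yes1, which is 14.3% against 2.81% of all probe sets. The study chose Srcin1 on these same samples, so its place in this count is not independent. The other, 1458878_at, is the dimmest of the 4 Yes1 probe sets. The 14.3% is thus no measure of the family. There was 1 lower, 1448765_at of Fyn, which is 7.14% against 1.55% of all probe sets. The count of 3 became 0 with the Xist class as a block, where MSC-only arrays 3 and 4 alone are compared with co-culture. It became 1 without co-culture array 3 or 5 or without MSC-only array 2. The groups were without overlap in 0 of the 14, against 0.198% of all probe sets. The median difference was 0.091 log2 units over the 14 and 0.017 over all probe sets, and the median size of the difference regardless of sign was 0.166 and 0.112. Dim probe sets make up part of the 14: 10 reached a signal of 50 on at least 6 arrays, and 1420706_at of Srcin1 and 1456843_at, 1418470_at and 1458878_at of Yes1 did not. In percentiles of level among all probe sets, Csk (84.2) was followed by Fyn (81.1 and 74.7), Src (65.9), Fgr (55.6), Yes1 (53.9), Srcin1 (52.6), Fgr (52.3), Blk (45.1), Src (44.6), Yes1 (38.1 and 35.2), Srcin1 (20.4) and Yes1 (16.6). Since probes differ in response, this is an order of signals and not of transcript amounts, and neighbours in it were not tested against each other.

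**Figure D4:**
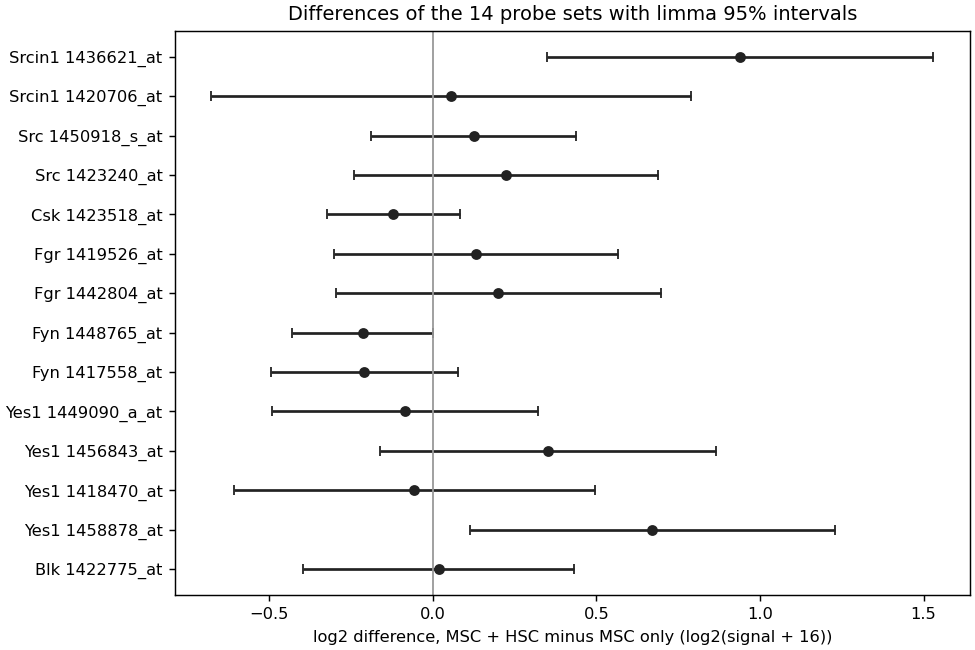
Log2 difference of each of the 14 probe sets, co-culture minus MSC-only (x axis, log2(signal + 16)), with limma 95% intervals as bars. The intervals of Srcin1 1436621_at (0.35 to 1.53) and Yes1 1458878_at (0.11 to 1.23) lie above 0, that of Fyn 1448765_at ends at -0.0004, and the others include 0.

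Srcin1 was set against the kinases array by array, since it binds both Src and Csk. The log2 values of 1436621_at were correlated with those of the 12 probe sets of Csk and the kinases. With Csk the rank correlation was rho = -0.797 (permutation p = 0.00299, adjusted over 12 relations 0.0359), while r was -0.620 (permutation p = 0.031, adjusted 0.337) and did not pass. The permutations shuffled all 12 arrays without regard to group, so the opposite group differences of Srcin1 and Csk enter these p-values. A relation within the groups was thus not tested. The p-values of r and of rho were adjusted separately, over 12 relations each. The low Srcin1 arrays, MSC-only 2 and 6, had Csk signals of 1088.5 and 953.3, and the high ones, co-culture 1 and 6, had 907.3 and 910.8. Without the 2 arrays farthest from the median r was -0.524. It was -0.803 on the positive and -0.699 on the negative side of the first component, -0.166 within co-culture and -0.561 within MSC-only, 6 arrays each. With Src 1450918_s_at r was 0.561 (permutation p = 0.059, adjusted 0.337) and rho 0.608 (permutation p = 0.0402, adjusted 0.241), and without the 2 farthest arrays r was 0.231. The remaining 10 relations had r between -0.483 and 0.496, with adjusted p of 0.337 or more.

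**Figure D5:**
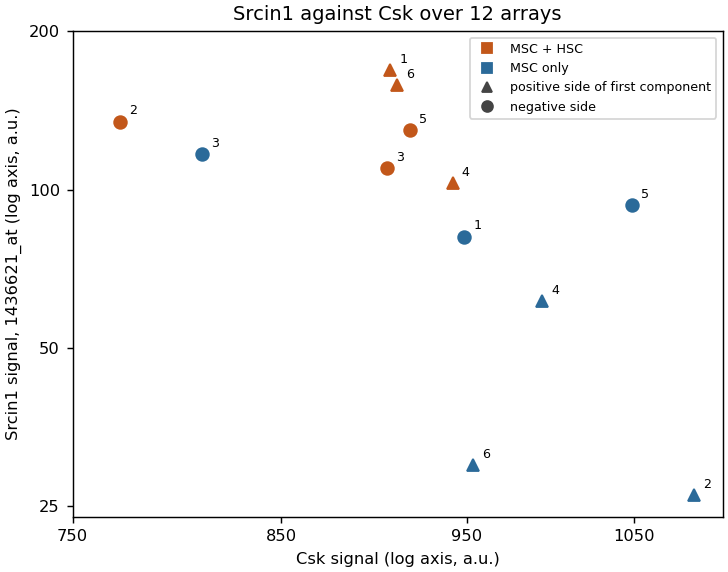
Signal of Srcin1 probe set 1436621_at (y axis, log scale, arbitrary units) against that of Csk (x axis, log scale, arbitrary units) on 12 arrays, with the group as colour, the side of the first principal component as symbol and the replicate number as label. MSC-only arrays 2 and 6 lie lowest for Srcin1 (26.2 and 29.9), and MSC-only array 3, with the lowest Csk signal of its group (810.7), has its highest Srcin1 signal (116.8).

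The 5 genes whose probe set was most like 1436621_at over the 12 arrays were Dnah17, an axonemal dynein heavy chain (r = 0.914), Gnb1, a G protein beta subunit (r = 0.901), Ap5z1, a subunit of an adaptor protein complex (r = 0.901), Rasgrp1, an exchange factor for Ras (r = 0.889), and Muc4, a mucin (r = 0.884). They were picked as the highest of all probe sets with 1 symbol, so these r values carry no test. Dnah17 had a mean signal of 42.4 in co-culture and 19.1 in MSC-only arrays, a log2 difference of 0.80 (SE 0.24, adjusted p = 0.978, limma). Gnb1 had 2834.5 in co-culture and 2711.5 in MSC-only arrays, a log2 difference of 0.06 (SE 0.07, adjusted p = 1, limma).

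Genes around the kinases were described by lists, each gene by its brightest probe set, and 0 genes of any list passed the adjusted threshold. Over all 18193 genes 9695 had a positive and 8498 a negative difference, with a median of 0.011 log2 units. Of the kinases related to the family, 4 were measured, with differences from 0.000 to 0.262 and a median of 0.201. Frk, a kinase of epithelial cells, had a mean of 186 ± 58.5 in co-culture and 150 ± 36.8 in MSC-only (log2 difference 0.26, SE 0.20), and its 3 dimmer probe sets had 0.29, 0.07 and -0.28. Matk, a relative of Csk, had 156 ± 67.1 in co-culture and 131 ± 36.2 in MSC-only (log2 difference 0.18, SE 0.24), and -0.06 with the Xist class as a block, and its other probe set had means of 86.2 in co-culture and 36.4 in MSC-only (log2 difference 0.85, SE 0.50). Ptk6 was dim, with means of 10.4 in co-culture and 6.13 in MSC-only (log2 difference 0.22, SE 0.18), and -0.11 at its other probe set.

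Genes listed as regulators of the kinases, not all of which act on the tail tyrosine, had the narrowest range of the 5 lists. They also had the highest median level of the 5, the 91.8th percentile of genes, and the part of level in this range was not tested. Of 13 measured, 5 had a positive and 8 a negative difference, between -0.083 and 0.040, with a median of -0.013. Ptprc (CD45), the phosphatase of blood cells for which the MSCs were sorted negative, had a mean of 12044.1 ± 387 in co-culture and 11941.4 ± 1265.1 in MSC-only, at the 98.5th percentile of genes. Ptpn6 (SHP-1) had 3617.1 ± 474.8 in co-culture and 3867.0 ± 721 in MSC-only. Ptpn11 (SHP-2) had 2125.6 ± 153.8 in co-culture and 2185.0 ± 90.5 in MSC-only, with a log2 difference of -0.04 and of 0.24 and -0.01 at its other probe sets, and Ptpn12, a phosphatase of p130Cas, had 6336.9 ± 527 in co-culture and 6469.5 ± 371.7 in MSC-only.

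Of the 9 proteins that Srcin1 is known to bind or act with, 7 had a positive and 2 a negative difference, with a median of 0.082. Sorbs3 (vinexin), an adaptor of focal adhesions, had a lowest, median and highest signal of 166.8, 235.2 and 247.9 in co-culture and of 91.5, 166 and 222.2 in MSC-only arrays. These ranges overlapped, and the log2 difference was 0.40 (SE 0.19, adjusted p = 1, limma). The 2 negative ones were Bcar1 (p130Cas), with means of 446 ± 122 in co-culture and 592 ± 238 in MSC-only (log2 difference -0.34, SE 0.26) and 0.07 (SE 0.14) at its other probe set, and Cttn (cortactin), an actin-binding Src substrate, with 2994.3 ± 578.9 in co-culture and 3529.7 ± 452.4 in MSC-only (log2 difference -0.25, SE 0.13) and between -0.34 and -0.06 at its other 4 probe sets. Neuron markers, a cell type in which Srcin1 is known, had 5 positive and 4 negative differences of 9, and their summed signal was 560.6 to 743.0 in co-culture and 631.7 to 753.3 in MSC-only arrays. Tubb3, the brightest, had means of 158 in co-culture and 193 in MSC-only.

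Of 18 measured adaptors and substrates of the kinases at cell adhesions, 4 had a positive and 14 a negative difference, with a median of -0.097. Sh3pxd2a (Tks5), a Src substrate of podosomes, had a lowest, median and highest signal of 767.2, 907.3 and 1307.6 in co-culture and of 1050.6, 1311.7 and 1459.6 in MSC-only arrays. The ranges overlapped, and the log2 difference was -0.45 (SE 0.13, adjusted p = 0.925, limma), and -0.27 (SE 0.32) at its other, dim probe set. The study also shows this gene among those it chose on these samples. Tns1 (tensin 1) had means of 527 ± 80.7 in co-culture and 413 ± 109 in MSC-only (log2 difference 0.37, SE 0.17, adjusted p = 1, limma). Vcl (vinculin) had a log2 difference of -0.26 (SE 0.15) and of -0.02 at its other probe set, and Ctnnb1 (β-catenin) one of -0.02 (SE 0.08). The summed signal of 12 MSC markers spanned 15619.3 to 40438.3 in co-culture and 17721.5 to 41067.6 in MSC-only arrays, with 4 positive and 8 negative differences. Its part in the adhesion values was not tested.

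Of 23 measured partners of the kinases in immune receptor signalling, 14 had a positive and 9 a negative difference, with a median of 0.009. Tyrobp (DAP12) and Fcer1g, the adaptors through which myeloid receptors engage the kinases, had means of 30471.7 and 27128.1 in co-culture and of 29317.2 and 27171.3 in MSC-only, with log2 differences of 0.05 (SE 0.11) and -0.00 (SE 0.10). Lcp2 (SLP-76) had 2640.8 ± 344.8 in co-culture and 2340.2 ± 405.7 in MSC-only (log2 difference 0.18, SE 0.14). Cd4, the coreceptor that carries Lck in T cells, had a lowest, median and highest signal of 15.8, 38.5 and 107.4 in co-culture and of 34.2, 95.8 and 204.6 in MSC-only arrays, with a log2 difference of -0.96 (SE 0.37, adjusted p = 1, limma), and -0.13 (SE 0.37) at its other probe set. Its groups overlapped, and T cell markers as a list had 7 positive and 2 negative differences of 9.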

How the data were processed

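RNA of 12 cultures was hybridized to Affymetrix arrays. The deposited table holds the signal intensity that the authors computed for each probe set with the GeneChip Operating Software, on a linear scale and not log-transformed. The 2% trimmed mean was 496.6 to 497.3 on every array, so the arrays had been scaled to a common mean. Median signals were 74.8 to 89.0. The number of arrays limits the precision.

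Probe sets were named by the platform annotation (34945 with 1 symbol, 932 with several, 9160 with none). Groups followed the sample labels. Signals were taken as log2(signal + 16) and compared by lmFit and eBayes of limma 3.58.1 under R 4.3.3, without a block or a filter. The p-values were adjusted over the 45037 probe sets by the Benjamini-Hochberg method, with 0.05 as the threshold. Correlations used 100000 permutations (two-sided). The comparison was tested on simulated data.

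The members and gene lists were chosen with earlier results of these data known. Named genes are all probe sets of the members, the 2 genes of smallest p and the 2 brightest of each list that is no marker list, the brightest gene of each marker list and the 5 genes most like Srcin1. S100a9, Cxcr2, Kit and Cd34 were named after their values were seen. The gene set tests and count-based tests of the study were not run. Alternatives covered the scaling, the added constant, dim probe sets, replicate number, Xist class, limma's options, the methods' test and the arrays used.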

Additional observations from a re-analysis of the deposited data

Results flagged for a closer look

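Among 80 groups of 6 arrays, from 40 named probe sets in both groups and without the 5 genes most like Srcin1, 3 had an array far from the others, and chance gives about 1 in 20. The Csk signal of co-culture array 2 was 771.5, while the other co-culture arrays lay between 905.5 and 942.0. The Yes1 signal of 1456843_at on MSC-only array 5 was 6.9, while the other MSC-only arrays lay between 34.3 and 51.3, and without this array the log2 difference was 0.14. The signal of Krt19, a keratin of epithelial cells, was 56.7 on co-culture array 1, while the other co-culture arrays lay between 119.8 and 170.2.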

How the results depend on the processing

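Alternatives were run for 40 named probe sets, without the 5 genes most like Srcin1. Under 28 of them, or 27 for probe sets that the filter on dim ones removed, 0 of the 40 passed the adjusted threshold. In the alternatives run for each, 21 of the 40 kept their direction, 7 of them among the 14 of Srcin1 and the kinases. Srcin1 1436621_at stayed between 0.32 and 1.56, and between 0.765 and 1.096 when 1 array was left out. The replicate number as a block left its log2 difference at 0.94 (limma adjusted p = 1) and called 0 of all probe sets. The replicate numbers were not taken as pairs, since the labels do not say what they mark and not every number's correlation of deviations was above 0.1. It was -0.161, -0.133, 0.118, 0.154, 0.103 and 0.146 for numbers 1 to 6, and 1 of 6 co-culture arrays correlated best with its own number. Kdm5d was low on arrays 3 and 4 of both groups, and whether equal numbers share a source was not settled. The count of all probe sets called, 2 as reported, was 1 with quantile normalization, median or 75th percentile centring, a constant of 1, the methods' test or the side of the first component as a block. It was 0 with a constant of 64, the filter on dim probe sets, the trend and robust options, within either side and without the low-Xist arrays, 8 without arrays 3 and 4, and 0 to 4 when 1 array was left out. The scalings moved the median of all probe sets to between -0.023 and 0.027.

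Some differences changed sign, none of which had been called. With the Xist class as a block, and equally without the 4 MSC-only arrays of low Xist signal, log2 differences were -0.019 for Src 1450918_s_at, -0.060 for Fgr 1419526_at, -0.028 for Blk, -0.063 for Matk, 0.115 for Ptpn6, 0.051 for Ctnnb1 and 0.070 for Fcer1g. Quantile normalization gave -0.043 for Blk, median centring -0.022 for Blk, -0.021 for Ptprc and -0.033 for Csf3r, and 75th percentile centring 0.007 for Fcer1g. Without arrays 3 and 4 they were 0.234 for Yes1 1418470_at, -0.032 for Ptprc, 0.017 for Ptpn12, 0.013 for Fcer1g, -0.183 for Ighm, -0.083 for Cd28 and -0.160 for Csf3r. Within the positive side of the first component they were -0.005 for Srcin1 1420706_at, 0.230 for Yes1 1449090_a_at, 0.134 for Yes1 1418470_at, 0.003 for Ptpn11, -0.021 for Ptprc, 0.013 for Fcer1g, -0.008 for Ighm, -0.026 for Cd28 and -0.049 for Csf3r, and within the negative side -0.197 for Blk and -0.140 for Gata2.

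Leaving out 1 array moved the log2 difference to -0.107 to 0.231 for Srcin1 1420706_at, -0.002 to 0.230 for Fgr 1419526_at, -0.002 to 0.303 for Fgr 1442804_at, -0.172 to 0.069 for Yes1 1449090_a_at, -0.211 to 0.093 for Yes1 1418470_at, -0.070 to 0.102 for Blk, -0.019 to 0.048 for Ptprc, -0.042 to 0.018 for Ctnnb1, -0.047 to 0.028 for Fcer1g, -0.005 to 0.107 for Ctss, -0.146 to 0.432 for Ighm and -0.080 to 0.084 for Csf3r. The cause of these changes was not tested. The 4 settings that were added after seeing the data are the side of the first component as a block, each side alone and the set without low-Xist arrays.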
